A study of Branchiostoma lanceolatum with 8 samples.

Results

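SoxB, SoxC and Zic genes were followed with and without Activin in explants of ectoderm, the layer that gives skin and nervous system, from Branchiostoma lanceolatum, an amphioxus and thus a chordate without backbone. The members were all rows named SOX1, SOX2, SOX4 or ZIC1 in the authors' deposited tables, which gave 6 gene identifiers: SOX1 (BL43369), SOX2 (BL03503, BL16399 and BL16400), SOX4 (BL06291) and ZIC1 (BL15923). All 6 were among the 15793 genes tested at 11 hours post fertilization (hpf) and the 16733 tested at 19 hpf, of which 13528 were in both tables. The explants were untreated controls or were given human recombinant Activin at 50 ng/mL, and were collected at 11 or at 19 hpf. Each of the 4 groups held 2 RNA-seq libraries, 8 in all, made from poly(A) RNA of explants mixed from different fertilizations. No strain, genotype or embryo age at cutting is given in the sources used here.

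SoxB1 proteins, the group of vertebrate SOX1 and SOX2, are DNA-binding HMG-box factors that keep neural progenitors undifferentiated, and in amphioxus and vertebrates SoxB1 genes are expressed in the neural plate. SoxC proteins, the group of SOX4, act in vertebrates in later progenitors and young neurons, where they promote neuronal genes. ZIC1 is a zinc finger factor of the neural plate and its border in vertebrates, and Zic genes of chordates are also expressed in dorsal mesoderm and somites. Activin is a TGF-beta ligand that signals through the receptors used by Nodal, a signal that in chordate embryos induces mesoderm and endoderm and the organizer, whose BMP antagonists allow neural fate in ectoderm.

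Activin-treated explants had more RNA of nearly all these genes at both times. In the authors' deposited table for 11 hpf 5 of the 6 identifiers rose and 0 fell, and in that for 19 hpf 5 rose and 0 fell, at a Benjamini-Hochberg adjusted p below 0.05 over all genes of a table. Among all genes 36.6% were called at 11 hpf, 12.0% higher and 24.6% lower, and 46.4% at 19 hpf, 18.7% higher and 27.7% lower. ZIC1 rose 8.92-fold at 11 hpf and 15.99-fold at 19 hpf, and SOX4 13.05-fold and 12.4-fold. The SoxB1 identifiers stood between 1.76-fold and 7.63-fold at 11 hpf and between 1.12-fold and 2.60-fold at 19 hpf. After shifting each table so that ribosomal protein genes had a median change of 0, 4 identifiers rose and 0 fell at 11 hpf, and at 19 hpf 2 rose, ZIC1 and SOX4, and 1 fell. Under that centring 7.997% of all genes rose at 11 hpf and 7.53% at 19 hpf, and 78.7% and 85.2% of the calls were lower.

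Fold changes below are log2 values of Activin over control from the authors' deposited tables, and ± gives the authors' standard error, with 2 libraries per group. The headers do not name the numerator. Positive was taken to mean higher in Activin from the genes LEFTY2, CHRD and GSC, which Nodal signalling induces in other chordate embryos. Their values ran from 2.77 ± 0.58 for GSC at 11 hpf to 6.92 ± 0.43 for LEFTY2 at 19 hpf in the authors' deposited tables. Values per library were not used here, so levels are group means of normalized counts computed from the mean and the fold change of each gene on the assumption that both groups weigh equally, and called rebuilt means below, and depth per library is unknown. The tables of both times were normalized separately, so ratios of levels between times were not tested. These levels are not per transcript length and are not compared between genes. In such bulk RNA, more cells of a type and more RNA per cell cannot be told apart.

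**Figure D1:**
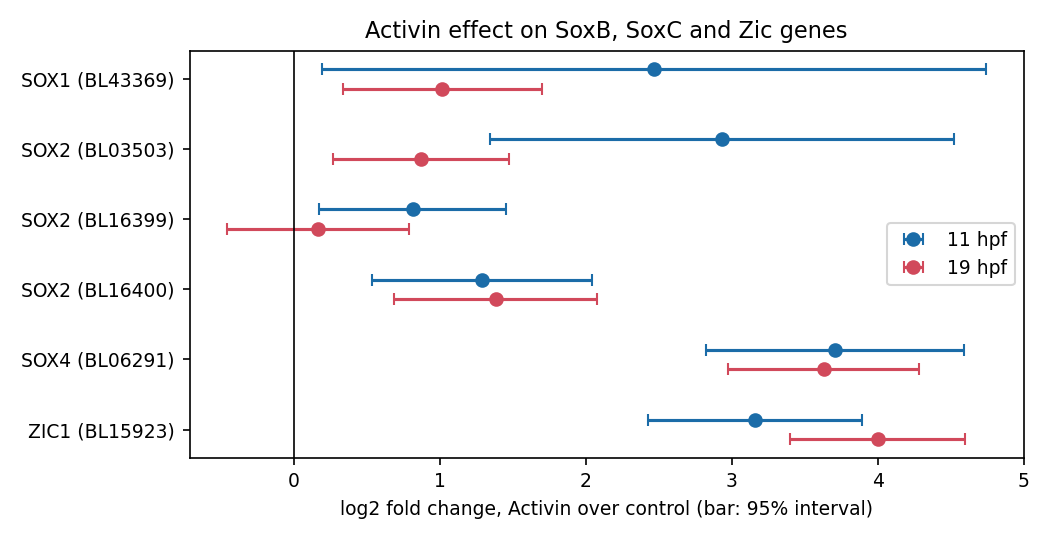
Log2 fold change of Activin over control (horizontal axis) for each of the 6 identifiers at 11 hpf (blue) and 19 hpf (red), as deposited by the authors, with 95% intervals from the deposited standard errors. SOX4 and ZIC1 lie above 3 at both times, and the interval of SOX2 (BL16399) at 19 hpf spans 0.

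ZIC1 had the largest change of the 6 at 19 hpf. Its rebuilt mean was 1365 normalized counts in controls and 12170 in Activin at 11 hpf, and 603 and 9641 at 19 hpf. The authors' deposited tables gave 3.16 ± 0.37 at 11 hpf (Benjamini-Hochberg adjusted p = 5.7e-16 over all genes, the authors' Wald test) and 3.999 ± 0.31 at 19 hpf (adjusted p = 2.7e-37). Of all genes tested, 3.88% had a higher fold change at 11 hpf and 3.66% at 19 hpf. The control level was lower in the 19 hpf table and the Activin level moved less. The fold change of 19 hpf exceeded that of 11 hpf by 0.84 ± 0.48, with a 95% interval from -0.10 to 1.79 and an adjusted p = 0.24 by the Wald test of the difference over 13528 genes.

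SOX4, the SoxC gene, had the largest change of the 6 at 11 hpf. Its rebuilt mean was 137 normalized counts in controls and 1782 in Activin at 11 hpf, and 219 and 2704 at 19 hpf. The fold change was 3.71 ± 0.45 at 11 hpf (adjusted p = 3.3e-15, the authors' Wald test) and 3.63 ± 0.33 at 19 hpf (adjusted p = 5e-26) in the authors' deposited tables. These differed by -0.08 ± 0.56, with a 95% interval from -1.18 to 1.02 and an adjusted p = 0.95 by the Wald test of the difference. Both group means were higher in the 19 hpf table, by 1.60 times in controls and 1.52 times in Activin, against a median ratio of 1.44 over all genes in both tables.

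SOX1 had few counts at 11 hpf and was well measured at 19 hpf. Its rebuilt mean was 6.66 normalized counts in controls and 36.8 in Activin at 11 hpf, and 620.2 and 1255 at 19 hpf. The authors' deposited table for 11 hpf gave 2.47 ± 1.16, not called (raw p = 0.034, adjusted p = 0.083, the authors' Wald test). The 95% interval of this change ran from 1.14-fold to 26.7-fold. It was called under upper-quartile scaling at 2.90 (adjusted p = 0.034) and under total-count scaling at 3.44 (adjusted p = 0.0086). At 19 hpf SOX1 rose by 1.02 ± 0.35 (adjusted p = 0.0094), which is 2.02-fold with a 95% interval from 1.26 to 3.24, but stood at -0.03 on ribosomal centring. The mean over libraries was 43.1 times higher in the 19 hpf table than in the 11 hpf table.

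The levels of the 3 SOX2 identifiers went different ways between the tables of both times. BL03503 rose from a rebuilt mean of 13.8 normalized counts in controls to 105 in Activin at 11 hpf, and from 2793 to 5103 at 19 hpf. Its mean was 66.5 times higher in the 19 hpf table, a ratio above that of 99.7% of the 13528 genes in both tables, and that of SOX1 was above 99.5%. In contrast, BL16400 had a mean 3.74 times lower in the 19 hpf table, and its ratio lay above that of 6.76% of genes. BL16399 lay between them at 0.78 times its 11 hpf mean. Thus SOX1 and SOX2 (BL03503) had their high levels at 19 hpf in both treatments, while SOX2 (BL16400) had its high levels at 11 hpf in both.

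**Figure D2:**
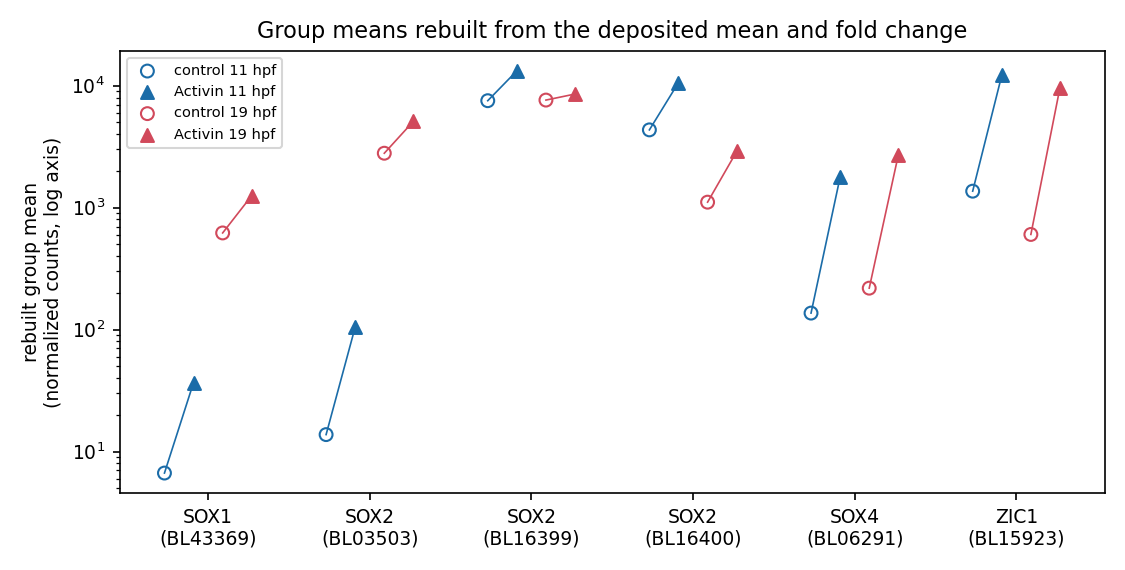
Rebuilt group means in normalized counts (vertical log axis) for each identifier, with open circles for controls, triangles for Activin, blue for 11 hpf and red for 19 hpf; lines join the groups of a time. SOX1 and SOX2 (BL03503) lie between 6.66 and 105 normalized counts at 11 hpf and between 620.2 and 5103 at 19 hpf. The tables of both times were normalized separately.

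The fold changes of the SOX2 identifiers were read one by one. In the authors' deposited table for 11 hpf BL03503 rose by 2.93 ± 0.81 (adjusted p = 0.0014, the authors' Wald test), BL16400 by 1.29 ± 0.38 (adjusted p = 0.0033) and BL16399 by 0.81 ± 0.33 (adjusted p = 0.038). The change of BL16399 was no longer called with the median of all genes at 0 (adjusted p = 0.062) or on ribosomal centring (adjusted p = 0.31). At 19 hpf BL16400 rose by 1.38 ± 0.36 (adjusted p = 4.1e-04) and BL03503 by 0.87 ± 0.31 (adjusted p = 0.012) in the authors' deposited table, while BL16399 stood at 0.16 ± 0.32, not called (adjusted p = 0.69). On ribosomal centring BL03503 stood at -0.18 and BL16399 was called lower at -0.88 (adjusted p = 0.012) at 19 hpf, and BL16400 stood at 0.33, not called (adjusted p = 0.47). Under total-count scaling BL16399 was called higher at 19 hpf, at 1.02 (adjusted p = 0.0033), so its direction depends on the scaling.

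BL16399 at 19 hpf had rebuilt means of 7620 normalized counts in controls and 8542 in Activin. The 95% interval of its change ran from 0.73-fold to 1.72-fold, so a rise as large as those of ZIC1 and SOX4 lay outside it. BL16400 had 4341 in controls and 10601 in Activin at 11 hpf, and 1109 and 2887 at 19 hpf. The fold changes of BL16400 at both times differed by 0.09 ± 0.52, with a 95% interval from -0.93 to 1.12.

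Differences between identifiers within a table do not depend on how the table was scaled. At 19 hpf BL16400 exceeded BL16399 by 1.22 on the log2 scale, with a 95% interval from 0.28 to 2.15, and at 11 hpf by 0.48, from -0.51 to 1.46. BL03503 exceeded BL16399 by 2.12 at 11 hpf, from 0.40 to 3.83, and by 0.70 at 19 hpf, from -0.16 to 1.57. BL03503 minus BL16400 was 1.64 at 11 hpf, from -0.12 to 3.40, and -0.51 at 19 hpf, from -1.43 to 0.41, so both intervals spanned 0. These intervals treat the errors of both identifiers as independent, although they share libraries, and no test was made. The tables do not say how reads shared between similar genes were counted, so reads may have moved between SOX2 identifiers. With all 3 identifiers summed, SOX2 went from 11886 normalized counts in controls to 23935 in Activin at 11 hpf, a log2 ratio of 1.01, and from 11522 to 16532 at 19 hpf, a log2 ratio of 0.52. The sum is led by BL16399, which had the most counts in each group, and is not read as the level of 1 gene.

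The order of the fold changes separated ZIC1 and SOX4 from the SoxB1 genes at 19 hpf. ZIC1 and SOX4 differed by 0.37 on the log2 scale there, with a 95% interval from -0.52 to 1.26. SOX4 exceeded the next gene, SOX2 (BL16400), by 2.25, from 1.29 to 3.21, and no neighbours below it differed beyond their interval. At 11 hpf every pair of neighbours in the order SOX4, ZIC1, SOX2 (BL03503), SOX1, SOX2 (BL16400), SOX2 (BL16399) had an interval that spanned 0. ZIC1 still exceeded SOX2 (BL16399) by 2.34 at 11 hpf, from 1.37 to 3.32, and by 3.83 at 19 hpf, from 2.97 to 4.70. At 11 hpf it also exceeded SOX2 (BL16400), by 1.87, from 0.82 to 2.92. SOX4 at 11 hpf exceeded SOX2 (BL16400) by 2.42, from 1.26 to 3.58, and SOX2 (BL16399) by 2.89, from 1.80 to 3.98. Against SOX1 and SOX2 (BL03503), which had few counts at 11 hpf, the intervals of ZIC1 and SOX4 spanned 0.

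**Figure D3:**
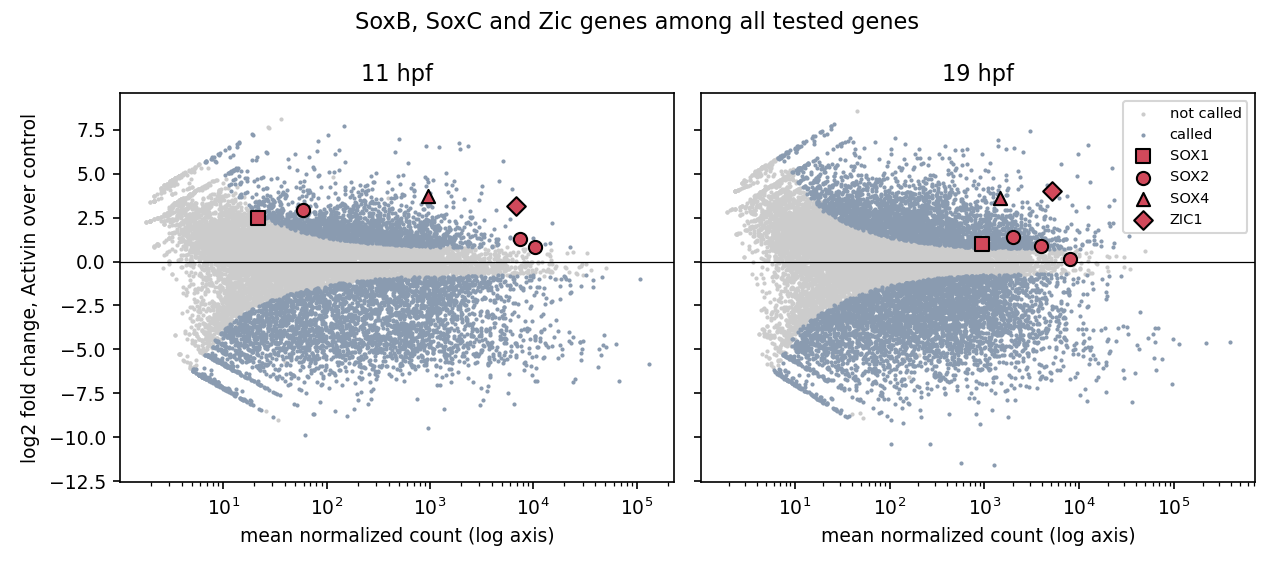
Mean normalized count (horizontal log axis) against log2 fold change of Activin over control (vertical axis) for all genes at 11 hpf (left) and 19 hpf (right), with called genes in dark grey and the 6 identifiers in red. SOX1 and SOX2 (BL03503) sit at means of 21.7 and 59.4 at 11 hpf and of 937 and 3948 at 19 hpf, and all 6 identifiers have positive values.

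No member differed between times in its response to Activin past the threshold. Of 6 identifiers 0 were called by the two-sided Wald test of the difference, Benjamini-Hochberg adjusted over 13528 genes, of which 16.8% were called, and 1 had a raw p below 0.05, against 28.7% of all genes. That was SOX2 (BL03503), whose fold change was lower at 19 hpf by 2.06 ± 0.87 on the log2 scale (difference -2.06, adjusted p = 0.085), with a 95% interval from -3.76 to -0.36. SOX1 had a difference of -1.45 ± 1.21 and SOX2 (BL16399) one of -0.65 ± 0.46 (adjusted p = 0.46 and 0.36). On ribosomal centring 2 identifiers were called, SOX2 (BL03503) at -2.74 (adjusted p = 0.012) and SOX2 (BL16399) at -1.33 (adjusted p = 0.023).

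Other SOX genes are given as family background. The tables named 4, and no other ZIC symbol had a row. At each time 1 of the 4 rose and 0 fell in the tables of the authors. SOX14, of the SoxB2 group, whose vertebrate members act as repressors beside SoxB1, rose at 11 hpf by 2.03 ± 0.43 (adjusted p = 1.6e-05, the authors' Wald test), from a rebuilt mean of 115 normalized counts to 473. At 19 hpf SOX14 stood at -0.49 ± 0.36, not called, with means of 881 and 626, and it stood above 0 under upper-quartile scaling (0.048) and total-count scaling (0.37), not called, while on ribosomal centring it was called lower at -1.54 (adjusted p = 6.7e-05). The change of its response between times was -2.53 ± 0.56 (adjusted p = 1.8e-04 by the Wald test of the difference) and stayed called under all 5 scalings. SOX7, of the SoxF group of vessel regulators in vertebrates, rose at 19 hpf by 1.23 ± 0.54 (adjusted p = 0.049) and stood at -1.06 ± 1.25, not called, at 11 hpf. The call of SOX7 was lost with the median of all genes at 0 (adjusted p = 0.065) and on ribosomal centring (adjusted p = 0.82). SOX6, of the SoxD group, stood at 0.69 ± 0.41 and -0.13 ± 0.36 at 11 and 19 hpf, and SOX9, a SoxE gene of neural crest and cartilage in vertebrates, at 1.38 ± 0.98 and 0.37 ± 0.54, none called in the authors' deposited tables.

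**Figure D4:**
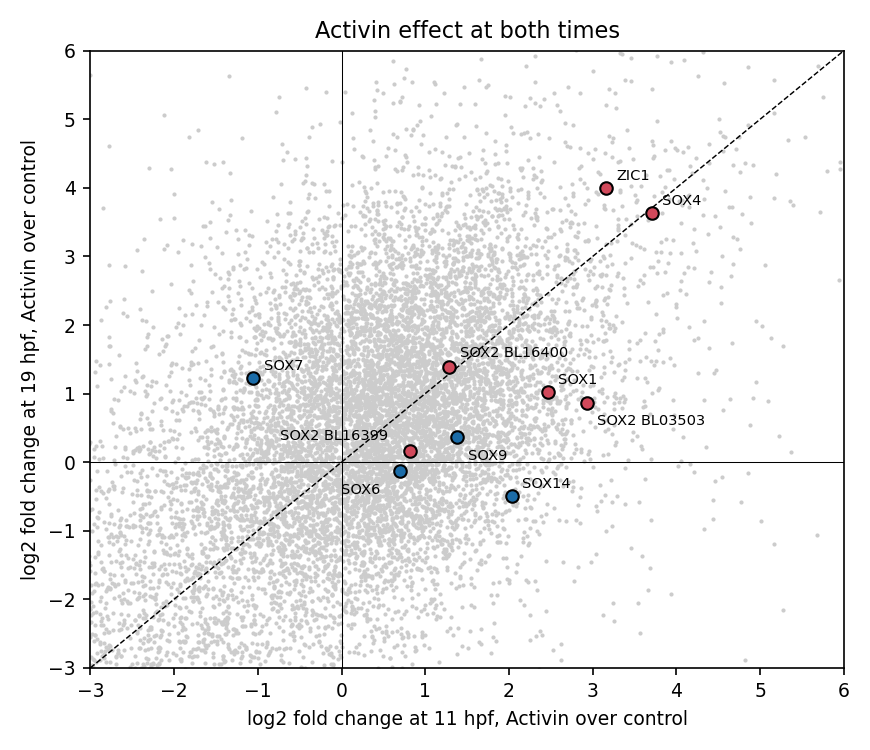
Log2 fold change of Activin over control at 11 hpf (horizontal axis) and at 19 hpf (vertical axis) for the genes in both tables (grey, those within the axis limits), the 6 identifiers (red) and the other SOX genes (blue); the dashed line marks equal change. ZIC1 and SOX4 lie at high values of both axes, and SOX14 lies at 2.03 and -0.49.

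Partners of SoxB1 proteins and other progenitor genes were counted as a list. Of 17 rows 2 rose and 3 fell at 11 hpf, with a median of 0.42 against 0.07 over all genes, and of 18 rows 12 rose and 3 fell at 19 hpf, with a median of 2.06 against 0.07. On ribosomal centring these counts were 2 and 4, then 7 and 4. As deposited, 12.0% of all genes rose and 24.6% fell at 11 hpf, and 18.7% rose and 27.7% fell at 19 hpf. These shares and the median of 0.07 over all genes apply to each list below. POU3F3, a POU factor of the class that binds DNA with SOX2 in vertebrates, rose by 5.96 ± 1.07 at 11 hpf, from a control mean of 2.12 normalized counts, too low for a readable fold, and by 4.38 ± 0.38 at 19 hpf in the authors' deposited tables. POU3F4 (BL49994) rose by 4.25 ± 0.75 at 19 hpf. Another POU3F4 row, BL05589, named after its values were seen, stood at -0.34 ± 0.37 at 11 hpf, not called. At 19 hpf BL05589 rose by only 1.24 ± 0.30, near the 1.05 that ribosomal centring subtracts at that time. Among those that fell at 19 hpf were PAX6 (BL13922), a regulator of eye and brain, at -1.27 ± 0.33, and HES1 (BL19011), of the repressors downstream of Notch, at -1.61 ± 0.33, in the authors' deposited table. Of the other HES1 rows, BL02292, BL02294 and BL12433 rose at 19 hpf, by 3.46 ± 0.75, 2.24 ± 0.37 and 0.87 ± 0.34 in the authors' deposited table, the last standing at -0.18 on ribosomal centring, and BL09719 was not called. These HES1 rows were named after their values were seen. PAX6 was no longer called under upper-quartile and total-count scaling (adjusted p = 0.056 and 0.28). MSI2, an RNA-binding protein of neural progenitors, fell at 11 hpf (-1.02 ± 0.33) in the authors' deposited table, a call lost under upper-quartile and total-count scaling (adjusted p = 0.15 and 0.90). At 19 hpf MSI2 went the other way and rose by 1.92 ± 0.30 (adjusted p = 1.2e-09, the authors' Wald test).

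Relatives of ZIC among the GLI and GLIS zinc finger genes numbered 3. Of these 2 rose at 11 hpf and 3 at 19 hpf, 0 fell at either time, and 0 were called at 19 hpf on ribosomal centring. GLIS2 rose by 3.52 ± 0.54 and GLI2, an effector of Hedgehog signalling, by 2.16 ± 0.38 at 11 hpf in the authors' deposited table. At 19 hpf GLIS2 rose by 1.73 ± 0.42 and GLIS3 by 1.57 ± 0.51.

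Genes of the neural plate border went both ways. Of 7 rows 2 rose and 2 fell at 11 hpf, with a median of 0.73, and of 10 rows 6 rose and 2 fell at 19 hpf, with a median of 3.13. FOXD3, a neural crest regulator in vertebrates and a somite gene in amphioxus, rose by 3.28 ± 0.59 and 5.16 ± 0.38 at 11 and 19 hpf, and SNAI2, of the Snail family, by 4.39 ± 0.54 at 11 hpf, in the authors' deposited tables. PAX3 rose at 19 hpf by 6.58 ± 1.69, from a control mean of 0.57 normalized counts, too low for a readable fold. The ectodermal regulators TFAP2D and DLX1 fell at both times, at -5.96 ± 0.34 and -2.31 ± 0.39 at 11 hpf and at -2.74 ± 0.39 and -2.52 ± 0.30 at 19 hpf in the authors' deposited tables.

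Among BMP and other neural induction signals 5 of 13 rows rose and 4 fell at 11 hpf, and 7 of 18 rose and 2 fell at 19 hpf, with medians of 0.73 and 0.77. The later median was -0.28 on ribosomal centring. CHRD, a BMP antagonist, rose by 4.59 ± 0.43 at 11 hpf in the authors' deposited table. CHRD set the reading of the sign, so it gives no independent direction. The ligand BMP2 had identifiers of opposite direction, BL21413 at 4.57 ± 0.96 and 5.53 ± 0.72 and BL12966 at -1.93 ± 0.44 and -1.61 ± 0.36 at 11 and 19 hpf in the authors' deposited tables. The falls of BL12966 were not called under total-count scaling (adjusted p = 0.063 and 0.061). BAMBI, a BMP pseudoreceptor, fell at -3.57 ± 0.47 and -1.64 ± 0.36, the later fall not called under total-count scaling (adjusted p = 0.053).

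Neurogenic and early neuronal genes, the setting in which SoxC factors act in vertebrates, had called rows in both directions. Of 11 rows 4 rose and 1 fell at 11 hpf, and of 15 rows 6 rose and 4 fell at 19 hpf, with medians of 0.76 and 2.19. The share that fell at 19 hpf, 26.7%, was near the 27.7% of all genes, while 40% rose against 18.7% of all genes. NEUROG3, a proneural bHLH factor, rose by 6.75 ± 0.50 and 6.46 ± 0.36, and INSM1, a zinc finger gene of newborn neurons, by 7.21 ± 1.21 and 4.18 ± 0.41 in the authors' deposited tables. The control mean of INSM1 at 11 hpf was 1.40 normalized counts, too low for a readable fold. NEUROG2 (-4.82 ± 0.37) and STMN2, a tubulin-binding protein of neurons (-4.09 ± 0.56), fell at 19 hpf. NEUROG2 was also the row that fell at 11 hpf, at -3.97 ± 1.36 (adjusted p = 0.012, the authors' Wald test). Its mean over libraries was then only 15.4 normalized counts.

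Cell cycle genes, which mark dividing progenitors among other cells, rose in 8 of 21 rows and fell in 3 at 11 hpf, and rose in 16 of 21 and fell in 0 at 19 hpf. Their medians were 0.45 and 1.97, and on ribosomal centring 8 rose and 5 fell, then 7 rose and 0 fell. MCM5 and MCM6, helicase subunits of DNA replication, rose by 3.21 ± 0.40 and 3.04 ± 0.39 at 11 hpf, and MKI67 and TOP2A by 2.62 ± 0.36 and 2.60 ± 0.34 at 19 hpf, in the authors' deposited tables. Of 3 RRM2 rows, for a subunit of ribonucleotide reductase, 2 fell at 11 hpf (-1.75 ± 0.36 for BL04678 and -1.02 ± 0.35 for BL12324) and BL19766 rose by 1.999 ± 0.47 in the authors' deposited table, the last named after its value was seen. Under total-count scaling neither fall was called (adjusted p = 0.063 and 0.92), nor was that of BL12324 under upper-quartile scaling (adjusted p = 0.18) or with the median of well measured genes at 0 (adjusted p = 0.055). At 19 hpf BL04678, BL12324 and BL19766 rose by 1.66 ± 0.34, 1.93 ± 0.35 and 1.81 ± 0.41 in the authors' deposited table. Control means of BL04678, BL12324 and MKI67 were 53.3, 42.2 and 77.7 times lower at 19 than at 11 hpf. Their Activin means were 5.01, 5.47 and 8.73 times lower. TOP2A was 3.86 times lower in controls and 1.15 times higher in Activin. The mean of BL19766 went from 222 to 365 normalized counts. Ratios between times were not tested.

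**Figure D5:**
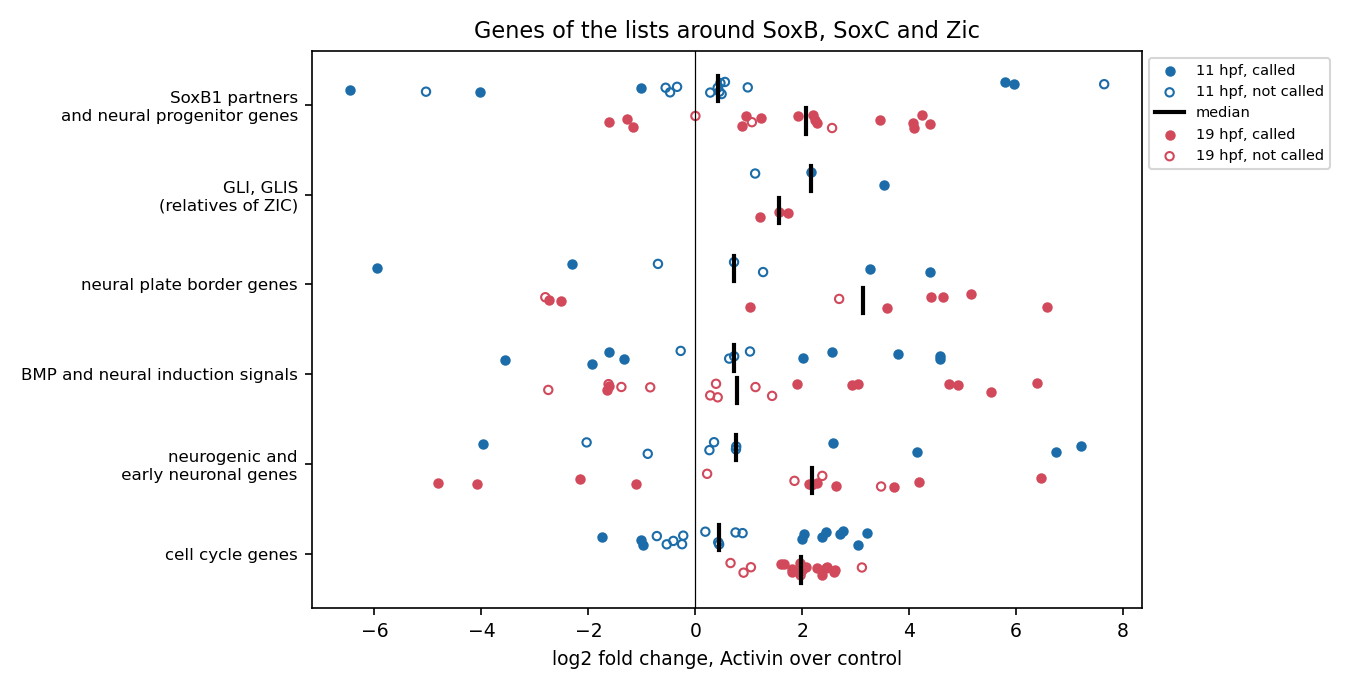
Log2 fold change of Activin over control (horizontal axis) of each gene row in the 6 lists around SoxB, SoxC and Zic at 11 hpf (blue) and 19 hpf (red), filled where called; black bars mark medians. The SoxB1 partner list has medians of 0.42 and 2.06 and the cell cycle list 0.45 and 1.97 at 11 and 19 hpf.

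Markers of epidermis and motile cilia mostly fell in the same comparisons, the called ones of mesoderm rose, and those of endoderm went both ways. Among all genes 12.0% rose and 24.6% fell at 11 hpf, and 18.7% rose and 27.7% fell at 19 hpf. Of 10 rows of epidermal markers 8 fell and 2 rose at 11 hpf, with a summed level of 332002 normalized counts in controls and 12509 in Activin. At 19 hpf 8 of 11 fell and 2 rose, from 760941 to 37035. Motile cilia markers fell in 12 of 14 rows and rose in 1 at 11 hpf, from a sum of 49614 to 4909, and in 14 of 15 and 1 at 19 hpf, from 83455 to 7293. Mesoderm and notochord markers, of interest because Zic genes are also mesodermal, rose in 2 of 11 rows and fell in 0 at 11 hpf, from a sum of 891 to 1326, and rose in 4 of 10 and fell in 0 at 19 hpf, from 762 to 3547. The tables used here had no row at either time for TBX6, MESP2, MYF5, RIPPLY1, TBX1 and FOXC1, nor for the epidermal KRT18, GATA3, KLF4, TFAP2A, GRHL2 and GRHL3 and the ciliary RFX2, TEKT4 and CFAP43. Endoderm markers rose in 1 of 5 rows and fell in 1 at 11 hpf, from a sum of 350.1 to 664. At 19 hpf they rose in 3 of 6 and fell in 1, from a sum of 4251 to 2608. Their median log2 fold changes were -0.22 at 11 hpf and 1.36 at 19 hpf, so sum and median went opposite ways at each time. Endoderm markers had no row for SOX17, FOXA3, GATA6, HNF4A, CDX1 and CDX2. Neural markers, which include SOX1, SOX2 and ZIC1, rose in 6 of 12 rows and fell in 3, then rose in 7 of 14 and fell in 4, and their sums went from 20135 to 52168 and from 22862 to 57212. The SOX2 identifiers together and ZIC1 held 23935 and 12170 of the Activin sum at 11 hpf, and 16532 and 9641 at 19 hpf. These neural counts and sums thus in large part restate the members at 11 hpf, and the sums less so at 19 hpf. ELAVL4, also among the neural markers, had means over libraries of 6237 and 7506 normalized counts at 11 and 19 hpf. It rose by 4.15 ± 0.35 and 3.72 ± 0.30. No row was found under the symbols SOX3, NEUROG1 and ELAVL3, while NEUROG2, NEUROG3 and ELAVL4 had rows. All missing entries above are symbols as deposited, and identifiers can share a symbol, as those of SOX2 do. A missing symbol therefore does not show that a gene is missing. The part of these cell types in the changes of the members was not tested.

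The genes nearest to each member over the fold changes of both times were found among 4829 genes with a symbol and a mean of at least 100 normalized counts at both. Nearness was the Euclidean distance over 2 values per gene, the log2 fold changes at 11 and 19 hpf, so it says little on its own. SOX4 had 5 genes within a distance of 0.5, the nearest being NPNT at 3.52 ± 0.40 and 3.79 ± 0.49, an extracellular matrix protein, then CDK5R1, a neuronal kinase activator, and ELAVL4, a neuronal RNA-binding protein at 4.15 ± 0.35 and 3.72 ± 0.30, in the authors' deposited tables. ZIC1 had 14, led by HDAC8, a histone deacetylase, SLC25A18, a mitochondrial carrier, and SLC6A9, a glycine transporter at 3.09 ± 0.40 and 4.20 ± 0.37. SOX1 had 52, led by PIK3R1, ARRDC3 and INTS7, and SOX2 (BL03503) had 23, led by LYSMD2, STK31 and SYS1. SOX2 (BL16400) had 178, led by EXT1, SMARCC2 and FAT4, and SOX2 (BL16399) had 344, led by SP4, LIMS1 and CXXC1.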

How the data were processed

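The 2 deposited tables, 1 per time, hold the authors' comparison of Activin with control explants. Per the submitters' processing notes HISAT2, featureCounts and edgeR were used. Not given in the sources used here are their versions, the genome build and the gene models. The columns carry the names that DESeq2 gives its results, per the file headers, and which tool made them is not stated. Per the file headers, the authors gave a mean signal over libraries in normalized counts. Fold changes and standard errors were deposited on a log2 scale. The deposited test score, a Wald statistic, was the fold change over its standard error throughout. Of the deposited p-values, the adjusted one matched the raw one after Benjamini-Hochberg correction over all rows.

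The authors' values were used with no refit. Computed here, in Python 3.11.15 with SciPy 1.17.1, were group means, 95% intervals (normal), a two-sided Wald test of the difference between times (the times share no library; checked on simulated data) and 5 other scalings. With 2 pooled libraries per group, p-values refer to the spread between them as the authors' model estimated it. Named were all SOX and ZIC rows, in each of 6 lists up to 2 called genes per direction and time with the largest change and a mean of at least 20, and the 3 nearest genes per member; 1 gene this rule names is not reported here. The members and lists were chosen with earlier results of these data known. Lists were matched by exact symbol, and against a group mean under 3 normalized counts the deposited log2 value is given with that mean but not read as a fold. No sequences are shown.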

Additional observations from a re-analysis of the deposited data

Results flagged for a closer look

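A Wald test of the difference between the fold changes of 19 and 11 hpf was Benjamini-Hochberg adjusted over 13528 genes. It singled out 11 of the 40 named SOX, ZIC and list genes that were in both tables, against 16.8% of all genes tested. None of SOX1, SOX2, SOX4 and ZIC1 was among the 11. Genes named only as nearest to a member, and POU3F4 (BL05589), were left out of this count and of the genes given below. Many of the named genes had been picked for large changes at either time. HES1 (BL02294), among the 11, was named after its values were seen. The share of 16.8% is therefore no fair rate for these genes. The neural genes among them were SOX14 (BL18089), with a difference of -2.53 (adjusted p = 1.8e-04), HES1, with -1.89 for BL19011 (adjusted p = 0.0037) and 2.80 for BL02294 (adjusted p = 2.2e-05), and MSI2 (BL17215), with 2.94 (adjusted p = 5.2e-09). Genes of the border and BMP lists were TFAP2D (BL23731), with a difference of 3.22 (adjusted p = 6.1e-08), BAMBI (BL06201), with 1.92 (adjusted p = 0.011), and FOXD3 (BL05120), with 1.89 (adjusted p = 0.045). Cell cycle genes were RRM2, with differences of 3.41 (BL04678, adjusted p = 1.1e-09) and 2.95 (BL12324, adjusted p = 2.9e-07), MKI67 (BL96250), with 3.15 (adjusted p = 1.1e-08), and TOP2A (BL08057), with 2.15 (adjusted p = 2.1e-04). Positive differences mean a higher log2 fold change of Activin over control at 19 hpf. The differences are as deposited, and among these genes only that of SOX14 was tested under the other scalings. Ribosomal centring subtracts 1.05 at 19 hpf and 0.37 at 11 hpf, so it lowers every difference.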

How the results depend on the processing

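The scalings subtracted between -0.98 and 0.37 from the log2 fold changes at 11 hpf and between -0.86 and 1.05 at 19 hpf, the extremes being total-count scaling and ribosomal centring. The members called at 11 hpf numbered 4 to 6 under the 8 alternatives, all higher. At 19 hpf they numbered 4 to 6, all higher, under 7 alternatives, and 3 on ribosomal centring, 2 higher and 1 lower. Total-count scaling, under which 6 members were called at each time, called 30.5% of all genes higher at 11 hpf and 33.8% at 19 hpf. Upper-quartile scaling, with 6 and 5 members called, called 19.2% and 27.5% of all genes higher. On ribosomal centring 2 members differed between times, against 0 in the other 6 alternatives. On that centring SOX1 stood at -0.0323 at 19 hpf, SOX2 (BL03503) at -0.179, SOX2 (BL16399) at -0.884, SOX9 at -0.68 and HES1 at -0.176 (BL12433) and -1.05 (BL09719), and the medians were -0.276 for BMP and neural induction signals and -0.106 for neural markers. HES1 (BL09719) stood at -0.066 with the median of all genes at 0. SOX6 at 19 hpf stood at 0.13 with the median of well measured genes at 0, 0.41 under upper-quartile and 0.73 under total-count scaling, and SOX14 at 0.048 under upper-quartile and 0.37 under total-count scaling. The scalings of the other SOX genes, the lists and their genes were added after the values were seen. The cause of these shifts was not tested. ZIC1 and SOX4 stayed called higher at both times under all 5 scalings. No paired analysis was possible because the tables hold fold changes and no values per library, and leaving out each replicate was not run for the same reason. Low counts limit SOX1 and SOX2 (BL03503) at 11 hpf, with standard errors of 1.16 and 0.81.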
